A study of Mus musculus with 3 samples.

Results

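The TRBV13 family, known in the older literature as Vβ8, comprises the mouse T cell receptor β chain V genes TRBV13-1 (Vβ8.3), TRBV13-2 (Vβ8.2) and TRBV13-3 (Vβ8.1). Its chains were taken from scTCR-Seq of CD45+ cells sorted from the sciatic nerves of neuropathic NOD.AireGW/+ mice, in which autoimmune-prone NOD mice carry 1 copy of a partial loss-of-function GW allele of the autoimmune regulator Aire. There were 3 libraries from 4 mice, all of this genotype and condition: a single mouse gave replicate 1, another gave replicate 2, and 2 mice were pooled in replicate 3. The mice were female per the study's methods, their age is not given in the sources used here, and no comparison between conditions was possible. The members were the productive β chain (TRB) contigs of called cells whose V gene was TRBV13-1, TRBV13-2, TRBV13-3 or TRBV12-2+TRBV13-2, a name that the deposited tables give to many TRBV13-2 chains. A contig is an assembled receptor transcript of 1 cell barcode. They were found in 1828 of the 6256 cells with a productive TRB, or of the 6634 cells with a productive TRB or α chain (TRA): 526 cells had TRBV13-1, 237 had TRBV13-2, 604 had TRBV12-2+TRBV13-2 and 478 had TRBV13-3, and a few cells held chains of several members.

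A TRB is assembled in the thymus from a V, a D and a J segment. The V segment encodes the first and second complementarity determining regions (CDR1 and CDR2), which mainly touch the MHC molecule, and the start of CDR3, which spans the V(D)J junction and mainly touches the peptide. Vβ8 chains are among the most used in mice. They are the main β chains of invariant NKT cells, they respond to the bacterial superantigen staphylococcal enterotoxin B, and Vβ8.2 is used by many myelin-reactive T cells in some mouse strains with experimental autoimmune encephalomyelitis.

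The members differ in the loops that their V exons encode, so these are shown first. The most common CDR1 of each member in replicate 2 is printed 5′ to 3′ on the coding strand, with capitals marking bases that differ from TRBV13-2.
TRBV13-2 CDR1: aataaccacaacaac
TRBV13-1 CDR1: aataGccacaacTac
TRBV13-3 CDR1: aataaccaTGacTaT
The CDR2 sequences are shown in the same way.
TRBV13-2 CDR2: tcatatggtgctggcagc
TRBV13-1 CDR2: tcatatggtgctggcaAc
TRBV13-3 CDR2: tcatatgTCgctgAcagc
These loops read NNHNN and SYGAGS in TRBV13-2, NSHNY and SYGAGN in TRBV13-1, and NNHDY and SYVADS in TRBV13-3. Chains named TRBV12-2+TRBV13-2 had the CDR1 and CDR2 of TRBV13-2. Over the 270 bases from framework 1 to framework 3, which replicates 2 and 3 report, TRBV13-2 differed from TRBV13-3 at 23 bases (91.5% identity) and from TRBV13-1 at 32 bases (88.1%), and TRBV13-1 differed from TRBV13-3 at 41 bases (84.8%). The main sequence of each member was the same in replicates 2 and 3 and matched the GRCm38 (mm10) reference, which is of another strain, with 0 mismatches. In replicate 2, 2 of the 287 TRBV13-1 contigs had another V sequence, and every other TRBV13 contig of replicates 2 and 3 had the main sequence of its member. Replicate 1 was deposited without these sequences.

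The name TRBV12-2+TRBV13-2 joined parts of 2 neighbouring genes. The 270 bases of all 359 such contigs of replicate 2 and all 77 of replicate 3 were identical to those of TRBV13-2, and none had the V exon of TRBV12-2. In GRCm38 the genes lie on chromosome 6 on the + strand, alternating with the TRBV12 genes: TRBV12-1 at 41113550 to 41114067, TRBV13-1 at 41116007 to 41116468, TRBV12-2 at 41118851 to 41119364, TRBV13-2 at 41121396 to 41121832, the pseudogene TRBV12-3 at 41127592 to 41128076 and TRBV13-3 at 41130147 to 41130585. Each functional gene has a first exon that encodes most of the leader peptide, which is removed from the mature chain, and a V exon. The leader exons, from the start codon on, are shown because the names of TRBV13-2 chains differ in them.
TRBV13-2 leader, chr6:41121396-41121441: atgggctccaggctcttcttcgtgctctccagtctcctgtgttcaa
TRBV12-2 leader, chr6:41118864-41118942: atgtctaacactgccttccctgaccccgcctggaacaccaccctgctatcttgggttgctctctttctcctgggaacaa
The leader of TRBV13-2 (46 bases) and its V exon (294 bases, 41121539 to 41121832) add up to 340 bases, and the longer leader of TRBV12-2 (79 bases) with the same V exon adds up to 373 bases. In the deposited consensus tables the V alignment of TRBV12-2+TRBV13-2 chains ended at reference base 373 as the median of each library, with 98.4% to 99.2% of the entries at that value. That of TRBV13-2 chains ended at 340, with 80.0% to 87.5% of the entries at that value. The lengths therefore equalled those of the TRBV13-2 V exon joined to the leader of the upstream gene, over a gap of 2596 bases, in the former and to its own leader, over 97 bases, in the latter. The leader itself was not read here, since the contig sequences were not used. The V alignments of TRBV13-1 and TRBV13-3 ended at a median of 337 and 340 bases, which are the sums of their own exons.

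**Figure D1:**
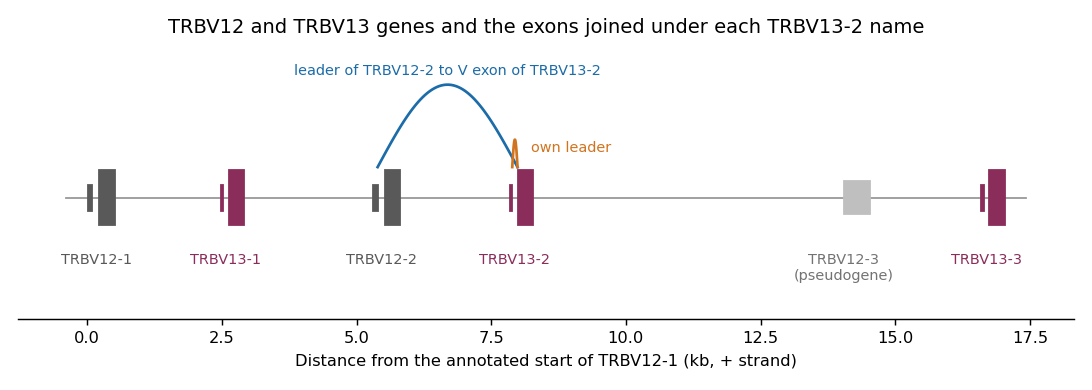
Map of the TRBV12 and TRBV13 genes in GRCm38, with distance from the annotated start of TRBV12-1 in kb on the x axis. Small boxes are leader exons, large boxes are V exons (purple for TRBV13, grey for TRBV12), and the arcs show the exons whose summed lengths equal the alignment ends of each name: 373 bases for TRBV12-2+TRBV13-2 (blue) and 340 bases for TRBV13-2 (orange).

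Most TRBV13-2 chains carried the longer name. It was given to 171 of 252 TRBV13-2 contigs in replicate 1 (67.9%, exact Clopper-Pearson 95% interval 61.7% to 73.6%), to 359 of 491 in replicate 2 (73.1%, 69.0% to 77.0%) and to 77 of 101 in replicate 3 (76.2%, 66.7% to 84.1%). The 3 intervals overlapped. Intervals here and below cover only the counting error, as if each cell were an independent draw. Chains with the V exon of TRBV12-2 itself were far fewer, with 12, 78 and 8 contigs in the 3 libraries. Contigs with the longer name were longer, with medians of 568, 567 and 568 bases against 533, 528.5 and 524 bases, and had slightly more unique molecular identifiers (UMIs, which count captured transcripts), with medians of 6, 5 and 4 against 5, 4 and 3. Among contigs with under 3 UMIs, 66.7%, 67.5% and 66.7% had the longer name, against 68.1%, 74.3% and 79.2% of those with 3 or more.

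The name varied among cells that shared a TRB rearrangement. Within a library, contigs of equal V gene, J gene and CDR3 nucleotides were counted as 1 rearrangement. With both names joined there were 532 TRBV13-2 rearrangements, of which 118 were found in more than 1 cell, and 62 of these 118 (52.5%) had cells under both names, 48 had only TRBV12-2+TRBV13-2 and 8 had only TRBV13-2. Both names occurred in 1 cell in only 1 case. The largest TRBV13-2 rearrangement of replicate 1 had 16 of 20 contigs under the longer name, the largest of replicate 2 had 18 of 19, the next of replicate 2 had 8 of 17, and the largest of replicate 3 had 5 of 6. Counting each deposited name as a V gene of its own thus divided 62 rearrangements into smaller ones, and results below are given under both countings where they differ.

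The longer name was more frequent on chains with a J gene of the TRBJ2 cluster than on those of the TRBJ1 cluster, the gene groups ahead of each of the β chain constant regions. In replicate 1 it was on 126 of 175 TRBJ2 contigs (72.0%) and 45 of 77 TRBJ1 contigs (58.4%). In replicate 2 the counts were 249 of 322 (77.3%) and 110 of 169 (65.1%), and in replicate 3 they were 66 of 82 (80.5%) and 11 of 19 (57.9%). The TRBJ2 share was higher in each library. Among rearrangements of a single cell, where no clone counts more than once, the longer name had 81.2%, 73.7% and 75.0% of TRBJ2 chains and 48.6%, 63.1% and 58.8% of TRBJ1 chains. This split was noticed in the data and was not tested on its own.

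**Figure D2:**
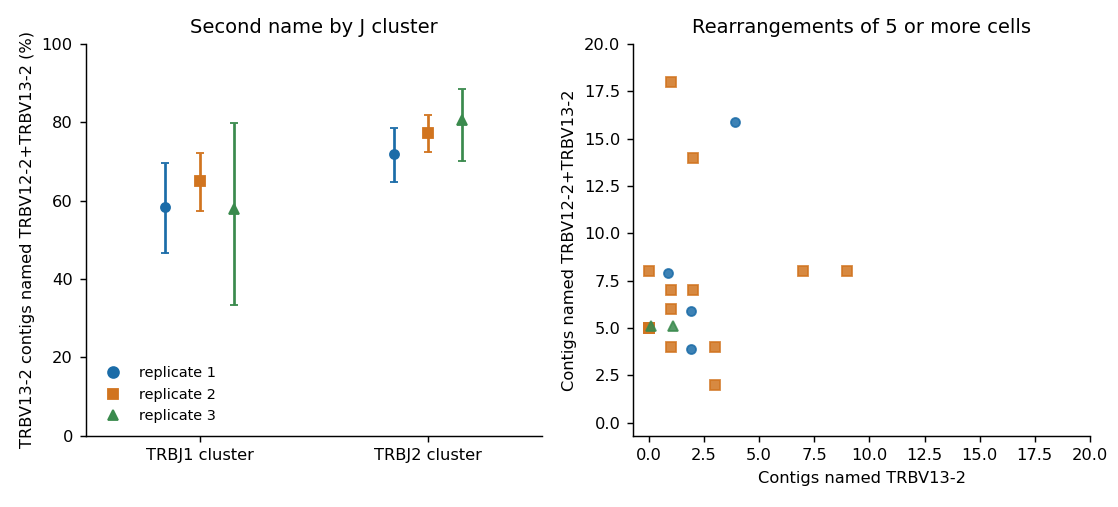
Left, share of TRBV13-2 contigs named TRBV12-2+TRBV13-2 (y axis, percent, with exact 95% intervals) by J cluster (x axis) in each library. Right, number of contigs under each name (axes, counts) for every TRBV13-2 rearrangement of 5 or more cells, slightly offset by library so that points do not hide each other; most rearrangements have contigs under both names, such as 16 and 4 contigs of the largest of replicate 1.

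Libraries differed in depth, with 34630 UMIs on the contigs of 2374 cells in replicate 1, 41338 UMIs on 3555 cells in replicate 2 and 5142 UMIs on 705 cells in replicate 3. The median member contig had 7, 6 and 4 UMIs, equal to the medians of other TRBs. More than 1 productive TRB was held by 8.99%, 10.6% and 1.06% of the member cells, against 5.06%, 6.46% and 1.56% of all cells with a TRB; a cell with more chains has more chances to hold a member. A TRA was lacking in 14.7%, 18.9% and 36.2% of the member cells and in 18.0%, 23.2% and 38.8% of the other cells. Shared cell barcodes numbered 7 between replicates 1 and 2 and 3 between replicates 2 and 3, and none of them had the same TRBV13 chain in both libraries.

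The family was on 27.2% of the cells with a TRB in replicate 1 (interval 25.3% to 29.0%), 30.6% in replicate 2 (29.0% to 32.2%) and 29.3% in replicate 3 (25.8% to 33.0%), or 29.0% ± 1.73 (SD, n = 3 libraries). Its share of rearrangements, each counted once whatever its number of cells, was 30.0% ± 1.48 (SD, n = 3 libraries). Shares of cells and of rearrangements were thus within 1 SD of each other.

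TRBV13-2 under both names was the most used member. It was on 11.1% (9.87% to 12.5%), 14.5% (13.3% to 15.8%) and 15.7% (13.0% to 18.8%) of the cells of replicates 1, 2 and 3, and ranked 3, 1 and 1 among the 21 TRBV genes. The interval of replicate 1 lay below those of the other libraries. By rearrangements the shares were 12.5% (10.8% to 14.5%), 14.5% (13.0% to 16.1%) and 15.4% (12.4% to 18.7%), with intervals that overlapped. Under its own name alone TRBV13-2 was on 3.60%, 3.93% and 3.74% of the cells, and TRBV12-2+TRBV13-2 on 7.55%, 10.6% and 11.99%. TRBV13-1 was on 8.92%, 8.45% and 6.39% of the cells, and TRBV13-3 on 7.15%, 8.06% and 7.17%. The ranges of TRBV13-1 and TRBV13-3 overlapped, and both lay below the lowest value of TRBV13-2 under both names. TRBV12-1 and TRBV12-2, the interspersed neighbours, were on 1.01% to 2.34% and 0.533% to 2.32% of the cells.

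**Figure D3:**
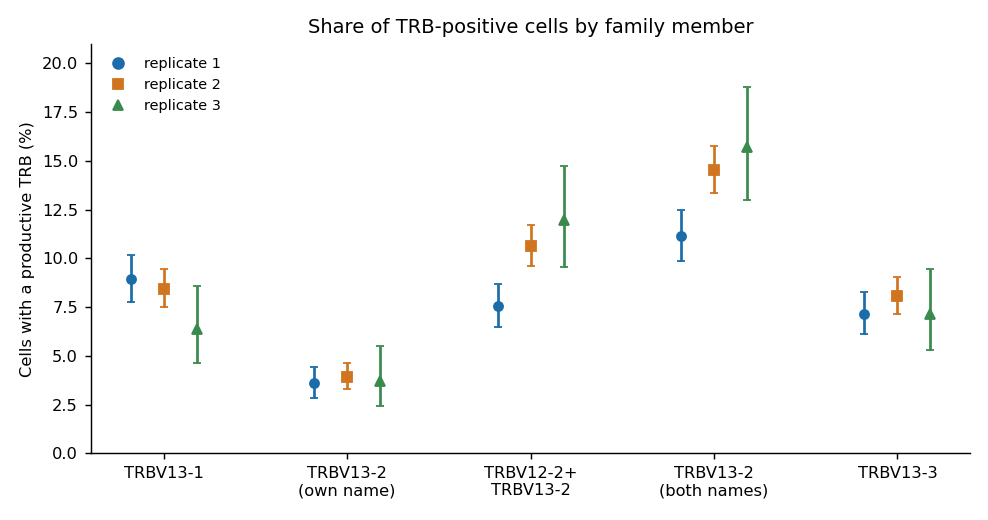
Share of cells with a productive TRB that carried each member (y axis, percent; x axis, member under its deposited name or with the names of TRBV13-2 joined). Points are libraries and bars exact 95% intervals; TRBV13-2 under both names (11.1% to 15.7%) lies above TRBV13-1 (6.39% to 8.92%) and TRBV13-3 (7.15% to 8.06%) in each library.

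No member passed a test of clonal expansion to more than 1 cell. A rearrangement was called expanded when it was in more than 1 cell, and the expanded rearrangements of each V gene were compared with the number expected from the share in its library by an exact conditional test (two-sided, with the libraries as strata) and Benjamini-Hochberg adjustment. This and the tests below compare rearrangements in these libraries, not mice, which number 4. By this exact test TRBV13-1 had 73 expanded rearrangements of 331 against 67.8 expected (adjusted p = 0.920), TRBV13-3 had 67 of 288 against 58.2 (adjusted p = 0.80), TRBV12-2+TRBV13-2 had 79 of 402 against 81.0 (adjusted p = 0.957) and TRBV13-2 had 29 of 192 against 39.1 (adjusted p = 0.540). With the names joined, TRBV13-2 had 118 of 532 against 110.2 (adjusted p = 0.879, exact). None of the members passed; of all 76 TRBV and TRAV genes tested 0% passed, and 4 had an unadjusted p under 0.05, and after joining the names 0% of 75 passed and 5 had an unadjusted p under 0.05.

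A limit of over 2 cells gave a call for TRBV13-2 that depended on its names. Under the deposited names TRBV13-2 had 5 rearrangements of over 2 cells against 18.2 expected (ratio 0.275, adjusted p = 0.0155 in the exact test). With the names joined it had 57 against 52.6 expected (ratio 1.08, adjusted p = 0.889, exact), a count chosen after seeing the data. The deficit under the shorter name was thus absent once the cells of each rearrangement were counted together.

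The share of expanded rearrangements differed between libraries. In replicate 1 it was 27.2% for TRBV13-1, 25.0% for TRBV13-2 under both names and 20.2% for TRBV13-3. In replicate 2 it was 21.7%, 23.8% and 29.9%, and in replicate 3 it was 8.11%, 11.0% and 4.76%. Over the family it was 24.5% (20.2% to 29.3%), 24.7% (21.4% to 28.3%) and 8.70% (4.84% to 14.2%), against 20.0%, 21.7% and 14.5% of the rearrangements with other V genes. At this limit of more than 1 cell the family lay above the other V genes in replicates 1 and 2. It lay below them in replicate 3 (14 of 161 rearrangements against 54 of 373), as did each of its members. This difference within libraries was not tested on its own. TRBV13-1 was the highest in replicate 1, TRBV13-3 in replicate 2 and TRBV13-2 in replicate 3, so no order of the members held across libraries. The largest clones were mostly outside the family, as were most rearrangements of any size. The family held 28.4%, 31.4% and 30.15% of all rearrangements in replicates 1, 2 and 3. Of the members only TRBV13-3 had a rearrangement of over 20 cells, with 30 cells in replicate 1. Other V genes had 3 such rearrangements in replicate 1, 8 in replicate 2 and 0 in replicate 3. These held 23.5% and 12.4% of the cells of those genes in replicates 1 and 2.

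The largest rearrangements of each member are shown as nucleotide CDR3, 5′ to 3′, with capitals for the bases between the parts that match the germline V and J segments (N and D bases). They were different sequences in each library, and none of their amino acid CDR3s with the same V gene was found in another library.
TRBV13-1, replicate 1, 18 cells: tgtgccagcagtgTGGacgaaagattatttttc
TRBV13-1, replicate 2, 15 cells: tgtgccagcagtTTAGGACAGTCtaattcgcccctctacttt
TRBV13-1, replicate 3, 3 cells: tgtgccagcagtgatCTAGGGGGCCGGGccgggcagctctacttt
TRBV13-2, replicate 1, 20 cells: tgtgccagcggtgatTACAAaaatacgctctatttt
TRBV13-2, replicate 2, 19 cells: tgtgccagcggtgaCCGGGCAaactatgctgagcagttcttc
TRBV13-2, replicate 3, 6 cells: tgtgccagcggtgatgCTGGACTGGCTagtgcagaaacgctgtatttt
TRBV13-3, replicate 1, 30 cells: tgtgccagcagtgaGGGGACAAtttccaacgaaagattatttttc
TRBV13-3, replicate 2, 13 cells: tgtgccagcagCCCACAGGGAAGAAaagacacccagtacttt
TRBV13-3, replicate 3, 3 cells: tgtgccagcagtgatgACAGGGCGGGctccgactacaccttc
TRBV13-3, replicate 3, 3 cells: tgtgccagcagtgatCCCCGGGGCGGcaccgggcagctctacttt
The TRBV13-3 rearrangement of replicate 1, with TRBJ1-4, was the largest of the family and made up 1.33% of the cells with a TRB in its library (interval 0.900% to 1.90%). The TRA of 20 of its 30 cells was TRAV3-3 with TRAJ17, and 9 cells had no TRA. The TRBV13-1 rearrangement of replicate 1, whose CDR3 has 11 residues and only 3 bases between V and J, had TRAV6N-7 with TRAJ53 in 16 of 18 cells. The TRBV13-2 rearrangement of replicate 2 had TRAV12D-2 with TRAJ32 in 17 of 19 cells.

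The TRBV13-2 rearrangement of replicate 1 stood apart in its α chains. Of its 20 cells 11 had no TRA, and the others held 5 different TRAs, of which the most common, TRAV13N-4 with TRAJ40, was in 5 cells. The other rearrangements printed above held at most 2 different TRAs each. Its CDR3 has 12 residues and 5 bases between V and J. Under the deposited names the largest TRBV12-2+TRBV13-2 rearrangements had 16, 18 and 5 cells and the largest TRBV13-2 rearrangements 4, 9 and 1 cells in replicates 1, 2 and 3.

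Counted by rearrangements, the J split between the 2 names of TRBV13-2 described above was seen again. The names were not tested against each other, and a rearrangement with both names was counted under each. Of the TRBV12-2+TRBV13-2 rearrangements, 77.7%, 67.3% and 82.0% used a TRBJ2 gene in replicates 1, 2 and 3, against 59.4%, 58.7% and 66.7% of those named TRBV13-2 and 66.3%, 66.5% and 66.8% of those with V genes outside the family. TRBV12-2+TRBV13-2 had 292 TRBJ2 rearrangements against 264.7 expected (ratio 1.10, adjusted p = 0.0467 in the same exact test), and was above expectation in all 3 libraries. It was the only V gene of 21 to pass, which makes the background 4.76%. Its adjusted p was 0.165 without replicate 1 and 0.140 without replicate 3. TRBV13-2 had 115 against 126.4 expected (adjusted p = 0.1499, exact). With the names joined TRBV13-2 had 366 against 350.3 expected (adjusted p = 0.230, exact) and 0% of 20 V genes passed, with 6 at an unadjusted p under 0.05.

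The other members did not pass for TRBJ2. TRBV13-1 had 203 of 331 against 217.8 expected (adjusted p = 0.1499, exact), with shares of 67.5%, 56.1% and 67.6%. TRBV13-3 had 174 of 288 against 189.6 expected (adjusted p = 0.138, exact), with shares of 64.0%, 58.6% and 59.5%, each below those of V genes outside the family.

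No single pairing of a member with a J gene passed when all cells and chains were counted. Under stricter filters 2 pairings of the name TRBV12-2+TRBV13-2 did. Of the 48 pairings with a TRBJ gene tested, 8 had an unadjusted p under 0.05 and 0 passed after adjustment, and over all V genes 3 of 193 passed (1.55%; 1.67% of 180 with the names joined). TRBV12-2+TRBV13-2 with TRBJ1-4 had 17 rearrangements against 33.1 expected (adjusted p = 0.0697, exact) and with TRBJ2-5 it had 71 against 51.2 (adjusted p = 0.0889). Both passed with at least 3 UMIs per chain, where TRBJ1-4 had 13 against 29.1 (adjusted p = 0.0213, exact) and TRBJ2-5 had 66 against 42.1 (adjusted p = 0.00772), and with exactly 1 TRB per cell (adjusted p = 0.0457 and 0.0424). Neither passed without any 1 of the libraries (adjusted p from 0.127 to 0.590, exact). TRBV13-2 under both names with TRBJ1-1 had 37 against 56.1 (adjusted p = 0.105, exact), and was below expectation in all 3 libraries. TRBV13-3 with TRBJ1-4 had 35 against 24.1 (adjusted p = 0.225, exact, names joined), and was above it in all 3. Over all 12 TRBJ genes, the profile nearest to that of TRBV13-1 was that of TRBV1 (total variation distance 0.107, where 0 means equal shares), followed by TRBV13-3 (0.1075). TRBV31 was nearest to TRBV13-2 (0.0791, next TRBV3 at 0.117), and TRBV31 and TRBV13-1 were about equally near to TRBV13-3 (0.1075 each), among 14 V genes with at least 100 rearrangements.

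The V exon also fixes how a CDR3 begins. The last 16 germline bases, from the conserved cysteine on, are the same in TRBV13-1 and TRBV13-3 and differ from TRBV13-2 at a single base.
TRBV13-1 and TRBV13-3: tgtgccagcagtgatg
TRBV13-2: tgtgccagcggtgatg
They encode CASSD and CASGD. CDR3s began with all 5 of these residues in 46.5%, 45.6% and 48.6% of the TRBV13-1 rearrangements of replicates 1, 2 and 3, in 49.4%, 49.0% and 45.1% of those of TRBV13-2 under both names, and in 39.3%, 51.6% and 40.5% of those of TRBV13-3. The 3 members overlapped in this share.

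TRBV13-3 kept less of this end than TRBV13-1, although their germline ends are identical in GRCm38. The germline residue at position 4, a serine, was kept in 93.0% (interval 86.6% to 96.9%), 93.9% (89.3% to 96.9%) and 94.6% (81.8% to 99.3%) of the TRBV13-1 rearrangements of replicates 1, 2 and 3. In TRBV13-3 it was kept in 78.7% (68.7% to 86.6%), 83.4% (76.7% to 88.9%) and 76.2% (60.55% to 88.0%). TRBV13-2 kept its glycine there in 93.8%, 97.2% and 93.9%. The highest share of TRBV13-3 lay below the lowest of either other member. These shares count the residue, whatever bases encode it. At least 12 germline V bases were kept in 71.9%, 79.6% and 76.2% of the TRBV13-3 rearrangements. The values were 90.4%, 87.8% and 89.2% for TRBV13-1 and 85.0%, 81.7% and 80.5% for TRBV13-2. By bases TRBV13-3 was also lowest in each library, but its intervals overlapped those of TRBV13-2. Of the 288 TRBV13-3 rearrangements 233 had the serine, 24 had an arginine in its place, 9 a threonine and 6 a lysine. The number of germline V bases kept was 13.3 ± 0.193 in TRBV13-3, 13.9 ± 0.108 in TRBV13-1 and 13.8 ± 0.145 in TRBV13-2 (SD, n = 3 libraries), and all 16 were kept in 18.0%, 16.6% and 14.3% of the TRBV13-3 rearrangements against 32.5%, 26.1% and 24.3% of those of TRBV13-1. These values are a description, and the difference was not tested.

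**Figure D4:**
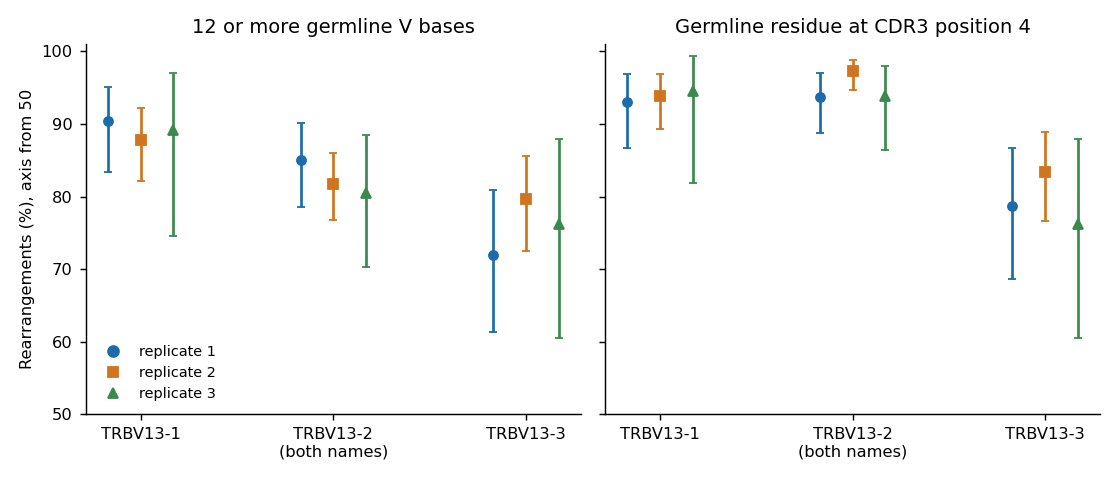
Share of rearrangements (y axis, percent, axis from 50) that kept 12 or more germline V bases (left) and the germline residue at position 4 of CDR3 (right), by member (x axis). Points are libraries and bars exact 95% intervals. On the left the TRBV13-3 points (71.9% to 79.6%) lie just below those of TRBV13-2 (80.5% to 85.0%), with overlapping intervals. On the right, where the residue counts whatever bases encode it, the TRBV13-3 points (76.2% to 83.4%) lie below all points of TRBV13-1 and TRBV13-2 (93.0% to 97.2%).

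CDR3 length did not set the members apart when rearrangements were counted. The median was 14 residues for each member in each library, as for other TRBV genes. The mean length of the member minus that of other TRBV genes was 0.21 ± 0.28 residues for TRBV13-1, 0.15 ± 0.31 for TRBV13-2, 0.02 ± 0.06 for TRBV12-2+TRBV13-2 and -0.10 ± 0.22 for TRBV13-3 (SD, n = 3 libraries), so each difference was within 1 SD of 0. Weighted by cells, it was 0.22 ± 0.17 for TRBV13-1 and 0.096 ± 0.0098 for TRBV12-2+TRBV13-2, both beyond 1 SD of 0. For TRBV13-2 under its own name (0.21 ± 0.28) and TRBV13-3 (0.02 ± 0.35) the weighted difference was within 1 SD. With the names joined, the weighted difference of TRBV13-2 was 0.13 ± 0.081, beyond 1 SD of 0. By rearrangements it was 0.068 ± 0.10, within 1 SD. A median of 9 to 11 bases lay between the V and J matches in all members and libraries, against 10 in other TRBV genes.

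TRBV13-3 was paired with α chains of the TRAV6 subgroup more often than expected. Pairs were counted once per library, in cells with exactly 1 TRA and 1 TRB, which gave 910, 1317 and 315 pairs, of which 264, 416 and 102 had a family member. TRAV6 was in 16 of 60 TRBV13-3 pairs in replicate 1 (26.7%, interval 16.1% to 39.7%), 26 of 108 in replicate 2 (24.1%, 16.4% to 33.3%) and 7 of 28 in replicate 3 (25.0%, 10.7% to 44.9%). In pairs of V genes outside the family it was in 15.8%, 14.4% and 14.6%, each below the TRBV13-3 share of its library. The 49 pairs were 1.61 times the 30.5 expected (adjusted p = 0.0370 in the exact stratified test, two-sided). It was the only pairing of a member to pass among 49 tested, against a background of 1.76% (3 of 170 pairings), or 1.88% of 160 with the names joined, where its adjusted p was 0.0289. The ratio was 1.58 to 1.63 without each library in turn, but the adjusted p of the exact test was 0.124 without replicate 1, 0.273 without replicate 2 and 0.0662 without replicate 3, and with at least 3 UMIs per chain it was 1.66 (adjusted p = 0.0876).

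The TRAV6 pairs of TRBV13-3 were spread over many J genes. They held 25 TRAJ genes and 11 TRBJ genes, and the most common of these were TRAJ40 (5 pairs) and TRBJ1-1 (10 pairs). Their 49 TRB CDR3s were all different, which largely follows from counting each pair once in a library. TRAV6N-7 (18 pairs, with 4, 10 and 4 in the 3 libraries) and TRAV6-6 (16 pairs, with 8, 8 and 0) made up most of the pairs. The other members had no such share: TRAV6 was in 17.2%, 14.3% and 10.0% of the TRBV13-1 pairs and in 13.7%, 14.3% and 16.7% of the TRBV13-2 pairs under both names.

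**Figure D5:**
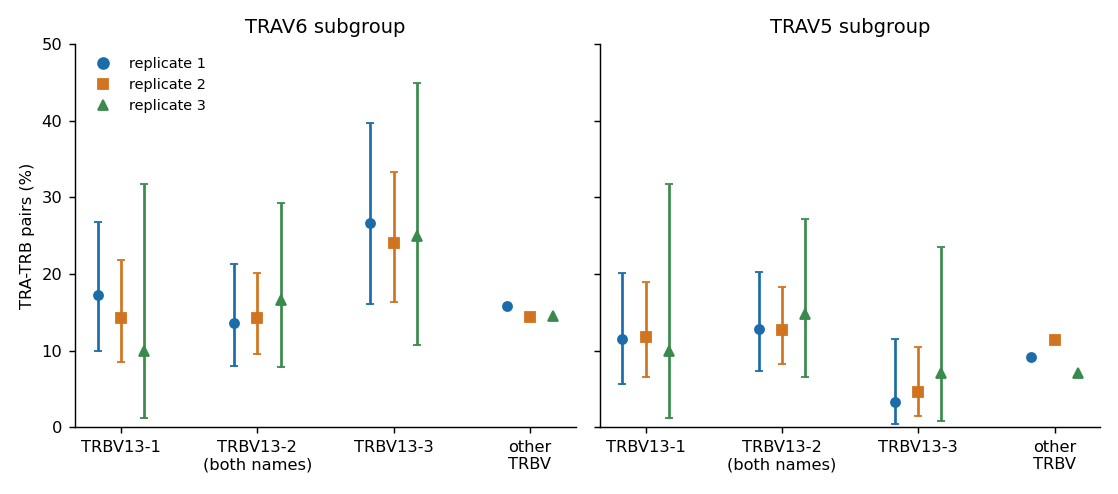
Share of TRA-TRB pairs (y axis, percent) with a TRA of the TRAV6 (left) or TRAV5 (right) subgroup, by member and for V genes outside the family (x axis). Points are libraries and bars exact 95% intervals, drawn for members only; TRAV6 is in 24.1% to 26.7% of TRBV13-3 pairs and in 14.4% to 15.8% of pairs outside the family.

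Other pairings of the members did not pass after adjustment over the 3 libraries. TRBV13-3 with TRAV5 had 9 pairs against 20.1 expected (adjusted p = 0.133, exact), with TRAV16 it had 13 against 7.14 and with TRAV9 11 against 19.4 (adjusted p = 0.324 each). TRBV12-2+TRBV13-2 with TRAV4 had 25 against 14.8 (adjusted p = 0.166, exact) and with TRAV10 5 against 13.1 (adjusted p = 0.258). With TRAV21 it had 16 pairs against 9.07 (adjusted p = 0.299, exact), with 1, 12 and 3 pairs in the 3 libraries, and this pairing passed without replicate 1, where 15 pairs stood against 5.72 expected (ratio 2.62, adjusted p = 0.0321). TRBV13-2 under both names with TRAV10 had 7 pairs against 17.2 (adjusted p = 0.107, exact). With TRAV21 it had 18 against 11.6 (adjusted p = 0.427, exact) and with TRAV4 27 against 19.6 (adjusted p = 0.46). Under its own name alone TRBV13-2 had 4 pairs with TRAV4 against 6.90 expected and 4 with TRAV10 against 6.01. The joined TRAV21 pairing was not examined without replicate 1.

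The invariant NKT-type TRA, TRAV11 with TRAJ18, was found only with TRBV13-2. There were 1, 5 and 1 such cells in replicates 1, 2 and 3, and all 7 TRBs were named TRBV12-2+TRBV13-2, each with a different CDR3. TRBV13-2 is the main β chain known in these cells. The longer name was on 67.9%, 73.1% and 76.2% of all TRBV13-2 contigs of the 3 libraries. In 5 of the 7 cells the TRA had the same amino acid junction, encoded by 2 nucleotide forms, which are shown with the TRB of a cell that held each.
TRA, replicate 1: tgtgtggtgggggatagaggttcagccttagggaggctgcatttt
TRB in the same cell: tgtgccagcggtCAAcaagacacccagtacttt
TRA, replicate 2: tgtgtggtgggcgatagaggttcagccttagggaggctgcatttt
TRB in the same cell: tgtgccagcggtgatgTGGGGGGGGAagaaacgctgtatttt
The MAIT-type TRA, TRAV1 with TRAJ33, which marks mucosal-associated invariant T cells, was in 1, 15 and 1 cells. In replicate 2 the family was on 7 of these 15 cells (1 TRBV13-1, 3 TRBV13-2 and 3 TRBV13-3), and in replicates 1 and 3 on 0 of 1. It was on 30.6% of all cells with a TRB in replicate 2.

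Few TRBs of the family were found in more than 1 library, and not more often than those of other V genes. With the names joined, and equality of V gene, J gene and CDR3 residues as the definition, these were 3 of 328 TRBV13-1, 7 of 512 TRBV13-2 and 2 of 285 TRBV13-3 TRBs (0.915%, 1.37% and 0.702%), against 38 of 2611 with other V genes (1.46%). By the same exact stratified test the ratio to expectation was 0.684 for TRBV13-1 (adjusted p = 0.856), 1.09 for TRBV13-2 (adjusted p = 0.906) and 0.530 for TRBV13-3 (adjusted p = 0.692). None of the members passed, against a background of 5% of 20 V genes, or 4.76% of 21 under the deposited names.

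Only 1 TRB of the series was found in all 3 libraries with the names joined, and it was a TRBV13-2 chain, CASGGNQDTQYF with TRBJ2-5. It was encoded by 7 different rearrangements, 1 in replicate 1, 5 in replicate 2 and 1 in replicate 3, each in 1 or 2 cells. They are shown because their junctions differ in nucleotides while the protein is the same.
replicate 1, 1 cell: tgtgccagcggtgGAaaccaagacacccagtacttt
replicate 2, 1 cell: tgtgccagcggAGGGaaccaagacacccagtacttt
replicate 2, 2 cells: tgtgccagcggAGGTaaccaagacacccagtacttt
replicate 2, 2 cells: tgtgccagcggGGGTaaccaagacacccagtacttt
replicate 2, 1 cell: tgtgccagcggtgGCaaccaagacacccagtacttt
replicate 2, 1 cell: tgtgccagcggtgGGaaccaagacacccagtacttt
replicate 3, 1 cell: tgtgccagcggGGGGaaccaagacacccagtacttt
All 7 had 2 or 4 bases between the V and J matches, and the rest of each CDR3 matched the germline segments. Over the family, rearrangements whose TRB was also found in another library had a mean of 1.91, 0.923 and 2.13 bases that matched no V, D or J segment in replicates 1, 2 and 3, against 3.66, 3.49 and 3.86 in the others; they numbered 11, 13 and 8, and the difference was not tested.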

How the data were processed

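The 3 libraries were made with 10x Genomics V(D)J kits and form 1 condition per the labels. Per the submitters' processing notes, the authors used Cell Ranger with mm10 (its version is not given in the sources used here). They called cells and assembled contigs, and deposited counts of UMIs and reads per contig and counts of cells per clonotype. Contig tables had 18 columns in replicate 1 and 31 in replicates 2 and 3. Contig lengths and consensus V positions are in bases as deposited. The contigs of cells held 35952437, 27828480 and 15273258 reads but far fewer UMIs, which with the cells limit the precision.

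Members and lists were chosen with earlier results of these data known. Main values used the deposited names, with TRBV12-2+TRBV13-2 joined to TRBV13-2 as an alternative, and sizes, starts and clone lists were also given joined. V genes needed at least 10 rearrangements, and pairings an expected count of at least 5. Calls used an adjusted p under 0.05 over all features of a test. The largest rearrangements, pairings past the threshold, TRBs in all 3 libraries and the nearest 2 J profiles were named by rule; other pairings and the split by J cluster were named after their values were seen. Germline segments came from GRCm38 with GENCODE M21 exons and RefSeq coding starts. In 40 simulated draws on the 3872 rearrangements, the expansion test recovered 100% of 80 TRBV genes given a 3-fold weight, and 3.93% of unchanged tests had p under 0.05. The raised genes all had at least 100 rearrangements, and adjustment was over TRBV genes only. The draws do not show how often smaller changes, or changes of rarer genes, would be found. Alternatives were joined names, at least 3 UMIs per chain, exactly 1 TRB per cell, each library left out, other limits for expansion, single TRAV genes and weighting by cells. Cells with several TRBs were kept in main counts, and no doublet caller was run. Gene expression was not analysed here. Tables were handled with pandas 2.3.3 and numpy 2.4.6 in Python 3.11.15. Tests and intervals came from scipy 1.17.1, translations from Biopython 1.88 and plots from matplotlib 3.10.9.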

Additional observations from a re-analysis of the deposited data

Results flagged for a closer look

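Productive TRBV13 contigs were also present in barcodes that were not called cells, which the counts above leave out: 1171 in replicate 1, 362 in replicate 2 and 197 in replicate 3. They were flagged for being above a fixed limit of 3 counts, the number that a count of 0 allows. That limit is not a background measured in these data, and passing it is not a test. They had a median of 1, 2 and 1 UMIs, and 69.9%, 64.6% and 55.8% of them carried a CDR3 and J gene seen in a cell of the same library. The family made up 16.8%, 25.6% and 36.3% of the productive TRB contigs outside cells, and 62.0%, 74.0% and 76.7% of the TRBV13-2 contigs among them had the longer name. Nonproductive TRBV13 contigs were found in 29 cells of replicate 1, 48 of replicate 2 and 14 of replicate 3, above the same limit, with a median of 2, 2 and 1 UMIs.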

How the results depend on the processing

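No paired analysis was possible because all 3 libraries belong to 1 condition. Joining the names of TRBV13-2 took the count of V genes past the threshold for TRBJ2 use from 1 to 0 and turned 3 ratios for TRBV13-2, none of them past the threshold: expansion to 1.07, TRBJ2 use to 1.04 and TRBs in more than 1 library to 1.09. At over 2 cells the expansion count was 1 (TRBV13-2), whose ratio turned to 1.08 with the names joined. At over 5 cells with the names joined TRBV13-1 turned to 0.986; both joined limits were chosen after seeing the data. With at least 3 UMIs per chain the counts were 0 for TRAV partners, 0 for TRBs in more than 1 library and 4 for TRBV-TRBJ pairs, and the share of TRBV13-2 was 3.35%. With exactly 1 TRB per cell they were 2 for TRBJ2 use and 6 for TRBV-TRBJ pairs, and under both of these filters the TRBV-TRBJ pairs included TRBV12-2+TRBV13-2 with TRBJ1-4 and with TRBJ2-5. With single TRAV genes the count of TRAV partners was 0. Weighting by cells gave a length difference of 0.096 ± 0.0098 residues for TRBV12-2+TRBV13-2 and 0.22 ± 0.17 for TRBV13-1 (SD, n = 3 libraries), both beyond 1 SD of 0. With the names joined, the weighted difference of TRBV13-2 was 0.13 ± 0.081, also beyond 1 SD of 0. Leaving out each library in turn gave 0 to 1 calls for expansion, 0 to 1 for TRBJ2 use, 0 to 4 for TRBV-TRBJ pairs, 0 to 2 for TRAV partners (TRBV12-2+TRBV13-2 with TRAV21 among them without replicate 1) and 0 to 1 for TRBs in more than 1 library. The expansion ratio ranged from 0.945 to 1.22 for TRBV13-1, from 0.854 to 1.23 for TRBV13-3 and from 0.835 to 1.07 for TRBV12-2+TRBV13-2, the TRBJ2 ratio of TRBV13-1 from 0.890 to 1.00, and the ratio of TRBs in more than 1 library from 0 to 1.11 for TRBV13-2, from 0 to 1.71 for TRBV13-3 and from 0.560 to 2.62 for TRBV12-2+TRBV13-2. The cause of these changes was not tested. Leaving out a library also leaves fewer rearrangements to test. Replicate 3, with the fewest cells, limits what can be said of its clones.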
